A study of Caenorhabditis elegans with 2 samples.

Results

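Mediator is a multi-subunit complex that joins transcription factors bound at enhancers and promoters to RNA polymerase II, and its subunits fall into head, middle and tail modules and a detachable kinase module. The head contacts the polymerase, the tail contacts many activators, and the kinase module, built around the cyclin-dependent kinase CDK-8, can keep the polymerase away from the core complex. The genes described here encode subunits of that complex, and the measurement is where the polymerase itself was found on them. They are mdt-26 and 9 other genes, mdt-6, mdt-8, mdt-11, mdt-15, mdt-17, mdt-18, mdt-19, mdt-28 and mdt-29, of 19973 protein-coding genes on the nuclear chromosomes. mdt-26 was chosen by its measured signal, because it holds 2 of the 10 strongest peaks that passed the authors' irreproducible discovery rate filter (IDR, a method that compares the ranks of peaks between replicates). Its high ranks are therefore a description, and no test is given for them. The other 9 genes were listed by name as Mediator subunits, with earlier results of these data known.

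The study was a chromatin immunoprecipitation with sequencing (ChIP-seq) against AMA-1, the largest subunit of RNA polymerase II, in whole Caenorhabditis elegans larvae at the L4 stage, the last larval stage before adulthood. The animals were of the wild-type strain N2, with the sexes pooled, and there were 2 biological replicates. They form 1 group, with no treatment, mutant or second stage beside them, so every comparison below is between genes or between replicates. Whole animals mix all tissues, so strong binding in few cells and weak binding in many cannot be told apart.

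Peaks were read from 4 lists on the ce11 build, which is the WBcel235 assembly. The pooled list and the list of each replicate held 30000 peaks each. The IDR list held 2082, with the same signal values as the pooled list and equal to its 2082 strongest peaks. A place in it thus followed pooled signal and does not show that both replicates held the peak. The collagen gene rol-6 had IDR rank 565 and no summit in replicate 2. The authors labelled the pooled list as peaks and background given as input to IDR, so its weaker entries may be background. Each entry has a −log10 q-value, smaller for weaker evidence. A summit, the position of highest signal in a peak, was counted for a gene when it lay inside the gene or within 500 bp of either side. Ranks run from 1, the strongest, by the authors' signal value, which has meaning only within its own list. Read depth is unknown, so ranks and not counts of reads carry the comparison, and no interval for counting error can be given. Of 18 marker genes for muscle, intestine, hypodermis, neurons, germline and pharynx, 15 had a summit in at least 1 of the pooled and replicate lists, with each of the 6 tissues represented. Replicate 1 had a summit for 12 of the 18, in 6 tissues, and replicate 2 for 11, in 5 tissues, with none for hypodermis. The IDR list held 3, in 3 tissues. Over all 19973 protein-coding genes, 43.3% had a pooled summit and 10.3% an IDR summit, while 8549 had one in replicate 1 and 8700 in replicate 2. The best pooled summits of unc-54, vha-6, asp-1, snb-1, rgef-1 and gld-1 lay outside the marker gene, that of unc-54 in a neighbouring gene. The intestinal esterase gene ges-1, the cuticle collagen gene bli-1 and the pharyngeal regulator gene ceh-22 had no summit in any list.

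The sequences at mdt-26 are shown first because both of its strong peaks lie in DNA rich in G and C. The window chrII:5661081-5661313 (ce11, plus strand, from RefSeq's copy of WBcel235) runs from 100 bp before the annotated start to the end of the first exon, and capitals mark TATAAA, the textbook binding motif of the TATA-binding protein. The window chrII:5661815-5662043 (plus strand) begins at the base of the second pooled summit, in the second intron, and capitals mark the arms of an inverted repeat that a script found there.
mdt-26 start: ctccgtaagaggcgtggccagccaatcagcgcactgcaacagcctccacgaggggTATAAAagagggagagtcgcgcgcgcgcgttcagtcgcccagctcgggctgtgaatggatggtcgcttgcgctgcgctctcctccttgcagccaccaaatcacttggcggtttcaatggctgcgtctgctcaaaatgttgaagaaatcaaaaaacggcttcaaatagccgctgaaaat
mdt-26 intron: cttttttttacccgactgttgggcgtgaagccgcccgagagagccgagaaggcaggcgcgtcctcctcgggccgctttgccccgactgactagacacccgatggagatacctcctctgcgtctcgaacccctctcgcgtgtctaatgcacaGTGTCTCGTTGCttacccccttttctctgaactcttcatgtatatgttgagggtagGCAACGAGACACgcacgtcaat

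Among the other 9 genes, mdt-6 and mdt-11 also carried TATAAA on the gene strand within 100 bp before the start. Their windows are chrV:7059585-7059684 (minus strand) and chrIII:5021164-5021263 (plus strand), each from 60 bp before the annotated start to 40 bp into the gene, with the motif in capitals.
mdt-6 start: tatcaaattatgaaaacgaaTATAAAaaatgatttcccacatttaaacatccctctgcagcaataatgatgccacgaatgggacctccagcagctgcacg
mdt-11 start: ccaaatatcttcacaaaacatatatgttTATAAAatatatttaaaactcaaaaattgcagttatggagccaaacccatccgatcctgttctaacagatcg

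mdt-26 (WBGene00016115) encodes the worm counterpart of human MED26, a subunit known in human cells for bridging Mediator to elongation factors. It lies at chrII:5661181-5665243 on the plus strand and is 4063 bp long. The strongest pooled peak in it spanned chrII:5661051-5661513, with its summit 71 bp inside the gene, in the coding part of the first exon. Its signal value was 707.1, rank 4 of the pooled and IDR lists. In replicate 1 the summit lay 94 bp inside, with a signal of 399.1 and rank 4, and in replicate 2 it lay 56 bp inside, with a signal of 322.4 and rank 2. Both replicates therefore placed the peak in the first exon and among the 4 strongest of 30000.

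The second peak of mdt-26 spanned chrII:5661609-5661999. Its summit was 634 bp from the start, in the second intron and 34 bp past the end of the second exon, with a signal of 507.1 and rank 9. In replicate 1 it was at 612 bp, with a signal of 293.6 and rank 10, and in replicate 2 at 657 bp, with a signal of 235.4 and rank 5. The first summit stood 1.39 times as high as the second in the pooled list, 1.36 times in replicate 1 and 1.37 times in replicate 2. The 2 pooled summits were 563 bp apart, with 95 bp between the peaks, and each replicate list also held them as separate calls. The peaks were 463 and 391 bp wide, against a median width of 344 bp in the pooled list. The weakest of the 10 strongest IDR peaks had a signal of 442.6, and the next peak below it 412.3. No other annotated gene held 2 of those 10 summits, and over the 20 strongest, a non-coding gene, C30E1.9, also held 2.

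Downstream of these peaks the polymerase signal in mdt-26 was far lower. Near the end of the gene, in the 3′ untranslated region, a pooled summit 309 bp before the annotated end had a signal of 43.0 and rank 2537. That summit had rank 2641 in replicate 1, with a signal of 27.96, and rank 7940 in replicate 2, with a signal of 11.78. The first summit was 16.4 times as high as the end summit in the pooled list, 14.3 times in replicate 1 and 27.4 times in replicate 2. Pooled summits inside the gene body, 2254 and 2454 bp from the start, had ranks 5193 and 18605. Between the strong peaks and the end summit, replicate 1 listed 2 summits and replicate 2 listed 4.

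**Figure D1:**
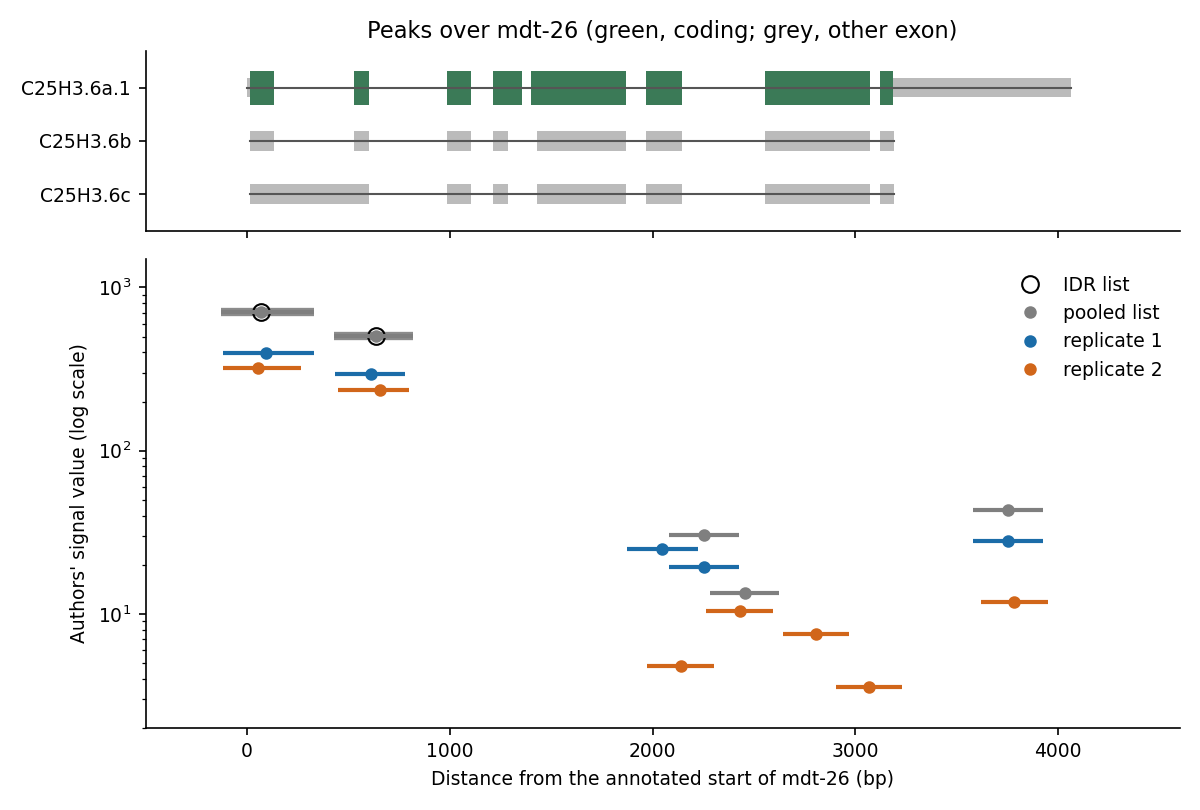
Peaks over mdt-26 by distance from its annotated start (bp), below its 3 annotated transcripts; bars span each peak, points mark summits, and the vertical axis is the authors' signal value on a log scale, to be read within a list. In all lists the 2 highest points lie within the first 657 bp, at 707.1 and 507.1 in the pooled list, and the end summit lies at 43.0.

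Both strong peaks of mdt-26 lay in DNA rich in G and C. The 301 bp centred on the first summit of mdt-26 held 47.8% G and C, above 89.4% of IDR windows, and those on the second held 51.5%, above 97.1%. The median was 39.9% over the 2082 IDR windows and 37.9% over the 30000 pooled windows. The 250 bp before to 50 bp after the annotated start of mdt-26 held 51.3% G and C, above 99.4% of the same windows of all protein-coding genes. The end summit of mdt-26 lay in a window with 33.6%. Among the best pooled summits of the other 9 genes the range was 28.2% at mdt-11 to 46.2% at mdt-29. Weaker pooled summits of mdt-15, at ranks 3286, 9705 and 14674, had 48.8%, above the first summit of mdt-26 and below the second. The part of GC content in these signals was not tested. Neither strong peak of mdt-26 had another match in the genome in a BLAST search at an E-value of 0.001.

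**Figure D2:**
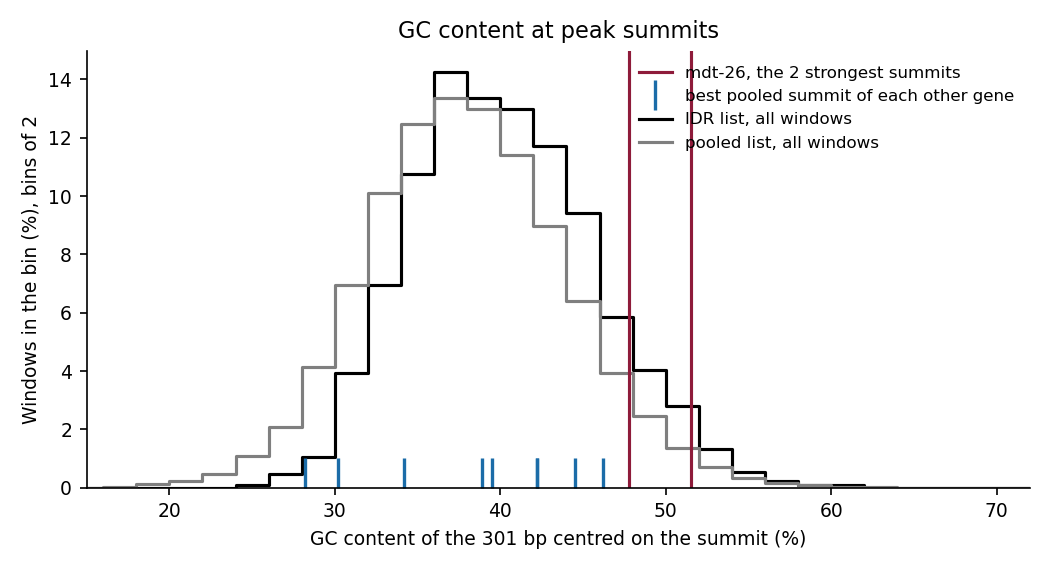
GC content (%) of the 301 bp centred on summits; vertical lines mark the 2 strongest summits of mdt-26, ticks the best pooled summit of each of the other 9 genes, and stepped curves the share (%) of IDR and pooled windows in bins of 2. The lines stand at 47.8% and 51.5%, to the right of all 9 ticks and of the medians of 39.9% and 37.9%. Weaker summits of those 9 genes are not drawn.

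The TATAAA motif of mdt-26 began 45 bp before the annotated start. That of mdt-6 began 40 bp before and that of mdt-11 32 bp before. In mdt-6 and mdt-11, and in none of the other 8 genes, AG ended at the base before the annotated start, the letters with which splice acceptors end, against 27.6% of all protein-coding genes. The longer acceptor motif TTTCAG ended there in 0 of the 10 genes, against 12.3% of all. Whether these 2 annotated starts are initiation or trans-splice sites was not tested, so the motif distances there are distances from the annotation. On the gene strand in the 100 bp before the start, the motif was present in 3 of the 10 genes, against 0 of the 19 other Mediator genes and 12.7% of all protein-coding genes. On either strand, in the 250 bp before to 50 bp after the start, it was present in 5 of the 10, 8 of the 19 and 37.9% of all. In mdt-11 a copy on the opposite strand overlapped the printed one. A match of letters is not a binding site, and its absence from this window says nothing of the factor. The inverted repeat in the second intron of mdt-26 had arms of 12 bases around a loop of 44 bases. Arms of at least that length, with a loop of 3 to 100 bases, were found within 300 bp of 4.56% of IDR summits. The window at the first summit held arms of 8 bases at most, as long as the median of IDR windows.

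Across the 10 genes, 3 had an IDR summit in the gene or within 500 bp: mdt-26, mdt-6 and mdt-17. The share among all protein-coding genes was 10.3%. All 10 had a pooled summit, against 89.5% of 19 other Mediator genes and 43.3% of all protein-coding genes. Of 40 genes for the polymerase and its general factors, 90% had one. All 10 had a summit in both replicates, against 94.7% of other Mediator genes, 77.5% of the polymerase and general factor genes and 35.1% of all. With 10 genes picked by name and by signal, these shares are counts and not a test. A pooled summit may also be a background entry: the only pooled summit of mdt-18 had a −log10 q-value of 0.853. The 10 genes were also longer, with a median length of 4612 bp against 2027 bp over all protein-coding genes, and a longer gene offers more room for a summit. Per kb of summed gene length, they held 0.511 pooled summits, against 0.355 over all protein-coding genes. That direction rested on mdt-15, which held 10 of their 25 summits: without it the other 9 genes held 0.343 per kb. Without mdt-17, the longest, the value was 0.709. The median per gene was 0.673 per kb, against 0.435 over other Mediator genes and 0 over all protein-coding genes. The part of gene length in the shares was not tested otherwise. The IDR list ended at a signal of 46.94. Just inside were a summit of mdt-17 at 50.7 and one of mdt-6 at 49.5, and just outside were the start summits of mdt-11 at 46.5 and mdt-6 at 45.1.

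**Figure D3:**
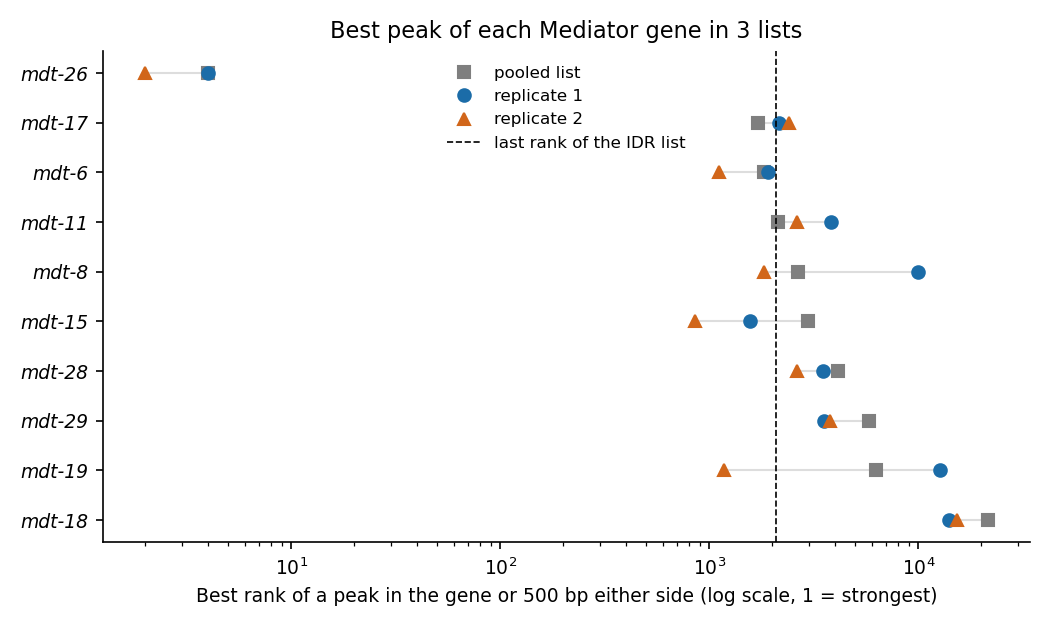
Best rank (log scale, 1 = strongest) of a peak in each of the 10 genes or within 500 bp, in the pooled list (squares), replicate 1 (circles) and replicate 2 (triangles); the dashed line is the last rank of the IDR list, 2082. mdt-26 stands at ranks 2 to 4, and the next best value in any list is rank 855, for mdt-15 in replicate 2.

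The largest group among the other genes encodes subunits of the head, the module that contacts the polymerase. mdt-17 (chrV:20250806-20267247, minus strand) encodes the scaffold subunit of the head. It is the longest of the 10 at 16442 bp, and its IDR summit lay 111 bp inside the gene, in a coding exon, with a signal of 50.7 and rank 1703. That summit had a signal of 30.4 and rank 2164 in replicate 1 and a signal of 21.9 and rank 2401 in replicate 2, so the ranks of the replicates were close. The pooled list held 2 more summits for mdt-17, at ranks 17825 and 25474. The one at rank 17825, 423 bp before the start, lay in a coding exon of its neighbour prmt-1.

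mdt-6 (chrV:7058547-7059624, minus strand) encodes the counterpart of MED6, a head subunit conserved from yeast. Its IDR summit, with a signal of 49.5 and rank 1825, did not lie in mdt-6 itself but 222 bp past its end, in a coding exon of the convergent gene Y57E12AL.2. That summit had a signal of 32.1 and rank 1915 in replicate 1 and 15.9 and rank 4681 in replicate 2. The summit at the start of mdt-6, 30 bp inside, had a pooled signal of 45.1 and rank 2290. There the replicates ran the other way, with a signal of 15.8 and rank 8256 in replicate 1 and 29.6 and rank 1114 in replicate 2. The order of start and end was thus opposite in the 2 replicates, and which of the convergent genes the end signal belongs to cannot be told apart here.

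mdt-8 (chrII:11527168-11533816, minus strand) and mdt-11 (chrIII:5021224-5021960, plus strand) encode further head subunits. The start summit of mdt-8, 81 bp inside, had a pooled signal of 41.9 and rank 2665. Its signal was 14.1, rank 9999, in replicate 1 and 24.4, rank 1830, in replicate 2. The start summit of mdt-11, 49 bp inside, had a pooled signal of 46.5 and rank 2127, with 23.59 and rank 3839 in replicate 1 and 21.02 and rank 2632 in replicate 2. The replicates were thus nearer each other at mdt-11 than at mdt-8. Beyond the ends, pooled summits were held by neighbours on the same strand: a coding exon of age-1, the phosphoinositide 3-kinase gene of the insulin pathway, at rank 8334 after mdt-8, and an intron of R144.3 at rank 19382 after mdt-11. Replicate 2 also listed a summit in the upstream neighbour of each gene, in an intron of Y62F5A.12 at rank 7247 before mdt-8 and in a coding exon of wip-1 at rank 16618 before mdt-11.

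mdt-28 (chrV:15574098-15575405, minus strand) and mdt-18 (chromosome I, minus strand) also encode head subunits, and mdt-19 (chrIII:2598053-2603212, plus strand) one that is placed in the head or the middle. mdt-28 had its best pooled summit 76 bp inside, in an intron, with a signal of 33.9 and rank 4141. In replicate 1 that summit had rank 3510, at 102 bp, while in replicate 2 the nearest summit was at 1 bp, with rank 5495. Replicate 2 had a stronger summit 161 bp past the end, at rank 2614, in a coding exon of fbxa-94. The pooled list had one at rank 15657 in an intron of fbxa-94, and replicate 1 listed none there.

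At mdt-19 the replicates differed most. Its best pooled summit, 596 bp inside in an intron, had a signal of 27.3 and rank 6277. Replicate 2 had a signal of 29.04 and rank 1178 at 598 bp, and replicate 1 had no summit there. The best of replicate 1 was 1065 bp inside, at rank 12650, where a non-coding transcript, Y71H2B.12, overlaps the gene. mdt-19 was also the gene of the 10 that had no pooled summit within 500 bp of its start. mdt-18 was the weakest, with a single pooled summit of signal 11.8, −log10 q-value 0.853 and rank 21435, 430 bp inside. Its best rank was 13952 in replicate 1 and 15219 in replicate 2. Those summits lay in the 5′ untranslated region of mdt-18, where it overlaps uri-1 on the opposite strand, in a coding exon or an intron of that gene.

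Tail subunits, which meet activators, are encoded by 2 of the 10 genes. mdt-15 (chrIII:5828557-5833751, minus strand) encodes the counterpart of MED15, known in C. elegans for driving lipid metabolism genes with the regulators SBP-1 and NHR-49. It had 12 pooled summits, the most of the 10 genes, against a median of 2. Their −log10 q-values ran from 0.588 to 3.877, and the weaker of them may be background entries. The 12 were spread from the start to the end, and the best, 270 bp inside, had a signal of 39.8 and rank 2980. The next best were 1001 bp inside, at rank 3286, and 5078 bp inside near the end, at rank 4186. In replicate 1 the strongest summit was 961 bp inside, with a signal of 34.8 and rank 1572, and in replicate 2 it was 5079 bp inside, with a signal of 32.8 and rank 855. Replicate 1 had summits at ranks 2312 and 17779 past the end, in R12B2.8, and held none within 100 bp of the position that led replicate 2. The strongest summit thus lay nearer the start in replicate 1 and nearer the end in replicate 2. No summit of mdt-15 reached the IDR list, since its best pooled signal of 39.8 was below the lowest IDR signal of 46.94. R12B2.13, annotated inside mdt-15, and R12B2.6, upstream, held 1 replicate 1 summit each in a coding exon, at ranks 2346 and 17060. R12B2.8, downstream, held the pooled summit at rank 6141.

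mdt-29 (chrIII:13773176-13778908, plus strand) encodes the counterpart of MED29, often placed in the tail. Its only pooled summit lay 277 bp before the start, at a signal of 28.4 and rank 5824, in a coding exon of pdr-1, the worm gene for parkin, which overlaps the start of mdt-29. In each replicate the best summit was instead inside the gene, in an intron. It was 351 bp from the start in replicate 1, with a signal of 24.5 and rank 3541, and 343 bp from the start in replicate 2, with a signal of 17.7 and rank 3777. A position that both replicates listed within 8 bp of each other was thus not in the pooled list.

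**Figure D4:**
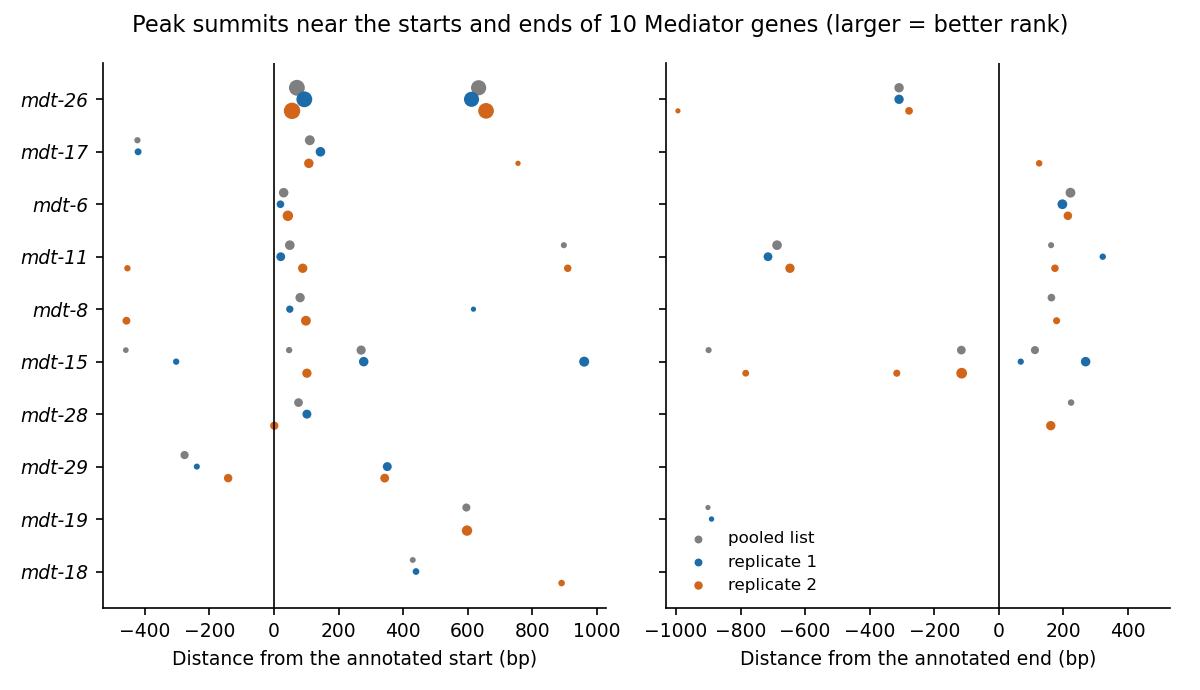
Summits of the pooled list and of each replicate by distance from the annotated start (left) and end (right) of each of the 10 genes, in bp; larger points have better ranks, and summits more than 1000 bp into a gene from the side shown are left out. The strongest pooled start summit lies between 0 and 150 bp inside for 6 of the 9 genes that have one, and mdt-19 has none within 500 bp of the start.

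Near the annotated starts, 9 of the 10 genes had a pooled summit within 500 bp. The shares were 73.7% of other Mediator genes, 77.5% of polymerase and general factor genes and 30.7% of all protein-coding genes. An IDR summit lay there in 2 of the 10, mdt-17 and mdt-26, the latter chosen by that signal. The shares for it in those sets were 10.5%, 17.5% and 5.57%. At 8 of those 9 the strongest start summit lay inside the gene, and at 6 of the 9 within the first 150 bp, with a median position 76 bp inside. Over the 6130 protein-coding genes with a start summit, 46.8% had it inside and 27.5% within the first 150 bp, and the median position was 22.5 bp before the start. Of the 19 other Mediator genes, 14 had a start summit, 7 of them inside the gene and 4 within 150 bp. Among polymerase and general factor genes, 31 had a start summit, 51.6% of them inside and 41.9% within 150 bp, with a median position 10 bp inside. mdt-26, chosen by that signal, is among the 6 of 9 above. In worms, an annotated start is often a trans-splice site, where a spliced leader RNA is joined to the message, and not the base at which transcription begins, so these distances depend on the annotation.

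Near the annotated ends, 6 of the 10 genes had a pooled summit within 500 bp, against 15 of the 19 other Mediator genes (78.9%), 29 of 40 polymerase and general factor genes (72.5%) and 33.3% of all protein-coding genes. Of the 5 genes over 1000 bp long with a summit at each side, mdt-26, mdt-8, mdt-15 and mdt-28 had the stronger pooled one at the start and mdt-6 at the end. That is 4 of 5, against 7 of 11 other Mediator genes, 11 of 16 polymerase and general factor genes and 45.6% of 3737 protein-coding genes. The replicates did not repeat that order. In replicate 1 the start was the stronger side at mdt-26 alone of 3 genes with both, against 43.7% of all, and in replicate 2 at 4 of 6, against 50.6%. At mdt-15 the end was stronger in both replicates, though nearly level with the start in replicate 1. The signals were 29.61 at the end and 29.47 at the start in replicate 1, and 32.84 and 20.59 in replicate 2. The end summit of replicate 1 lay 269 bp past mdt-15, in an intron of R12B2.8. That of replicate 2 lay in the 3′ untranslated region of mdt-15. At mdt-28 the end was stronger in replicate 2, at 21.09 against 14.6 at the start. Of the genes with both sides in all 3 lists, mdt-26, mdt-6 and mdt-15, mdt-26 alone had the stronger summit at the start in each. mdt-26 was chosen for the strength of its peaks, its start summit among them. Its order of start and end, here and in the 4 of 5 above, was set by that choice. At mdt-8, mdt-6 and mdt-28 the end summit lay in a neighbouring gene. Close neighbours were common: 7 of the 10 had an upstream gene on the same strand within 500 bp, an arrangement found in worm operons. The shares were 42.1% of other Mediator genes, 35% of polymerase and general factor genes and 20% of all protein-coding genes. mdt-26 was not among the 7, since its upstream neighbour, ift-43, lies on the opposite strand 394 bp away. The first strong summit of mdt-26 also lay within 500 bp of ift-43, so by the rule used here it counts for that gene too. All 7 had a pooled start summit, against 7 of 8 other Mediator genes, 14 of 14 polymerase and general factor genes and 47.9% of 4003 protein-coding genes with such a neighbour, and for them signal that runs on from the upstream gene cannot be told apart from signal of their own.

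Replicates were compared at each pooled summit of the 10 genes, a summit within 100 bp counting as found. Of 33 pooled summits, 12 (36.4%) were found in both replicates, 11 in replicate 1 alone, 9 in replicate 2 alone and 1 in neither. Over all 30000 pooled peaks 31.3% were found in both. The shares differed between ranks: 10 of 13 of these summits at ranks 1 to 5000 were found in both, against 73.8% of all peaks at those ranks, and 2 of 20 below rank 5000, against 22.8%. The best rank of a gene was better in replicate 2 for 7 of the 10 and in replicate 1 for mdt-17, mdt-18 and mdt-29, against 54.1% better in replicate 2 over the 7009 protein-coding genes with a summit in both. The replicates also differed at tissue markers. The collagen gene rol-6 had rank 191 in replicate 1 and no summit in replicate 2. The germline helicase gene glh-1 had rank 5322 in replicate 2, 97 bp past its end, and no summit in replicate 1. The muscle myosin gene unc-54 had best ranks of 401 in replicate 1 and 9777 in replicate 2, but at different positions. The former lay 159 bp past its end, near a pooled summit that lay in a neighbouring gene, and the latter 2093 bp inside unc-54. The part of these marker differences in those at the Mediator genes was not tested. The best ranks of the replicates differed by a median factor of 1.59 over the 10 genes and 2.12 over those 7009. The best ranks of a gene could come from different positions, as at mdt-6, mdt-15, mdt-18, mdt-19 and mdt-28. These factors thus do not measure how well the replicates matched at a shared summit.

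Of the 19 other Mediator genes on the list used here, 3 (15.8%) had an IDR summit, mdt-4, cdk-8 and mdt-9, and 17 had a pooled summit. mdt-4, which encodes a middle-module subunit, was second to mdt-26 over all 29 Mediator genes, with a summit 1287 bp inside at a signal of 112.8 and rank 215. Its best rank was 664 in replicate 1 and 151 in replicate 2. The kinase-module gene cdk-8 had a summit 101 bp before its start at a signal of 89.4 and rank 405, with rank 2983 in replicate 1 and 165 in replicate 2. mdt-9, also of the middle module, had a summit 49 bp before its start at 51.1 and rank 1670, in the 5′ untranslated region of Y62E10A.23, with ranks 2590 and 2660 in replicates 1 and 2. The remaining kinase-module genes did not reach the IDR list: the best pooled rank was 7671 for dpy-22, 7598 for let-19 and 14998 for the cyclin gene cic-1. mdt-1.2 had no summit in any list.

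The polymerase and its general factors served as a second set for comparison. Of 40 genes for RNA polymerase II subunits and general transcription factors, 8 (20%) had an IDR summit and 36 a pooled one. Their strongest was taf-4, a TFIID subunit gene, at a signal of 324.5 and rank 19 before its start. ama-1, the gene of the precipitated subunit, had its best pooled summit at rank 5901. The median best pooled rank was 2822 over the 10 genes described here and 2980 over the 9 without mdt-26. It was 5254 over the 17 other Mediator genes with a pooled summit, 5035 over the 36 polymerase and general factor genes with one, and 5643 over the 8653 such protein-coding genes.

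**Figure D5:**
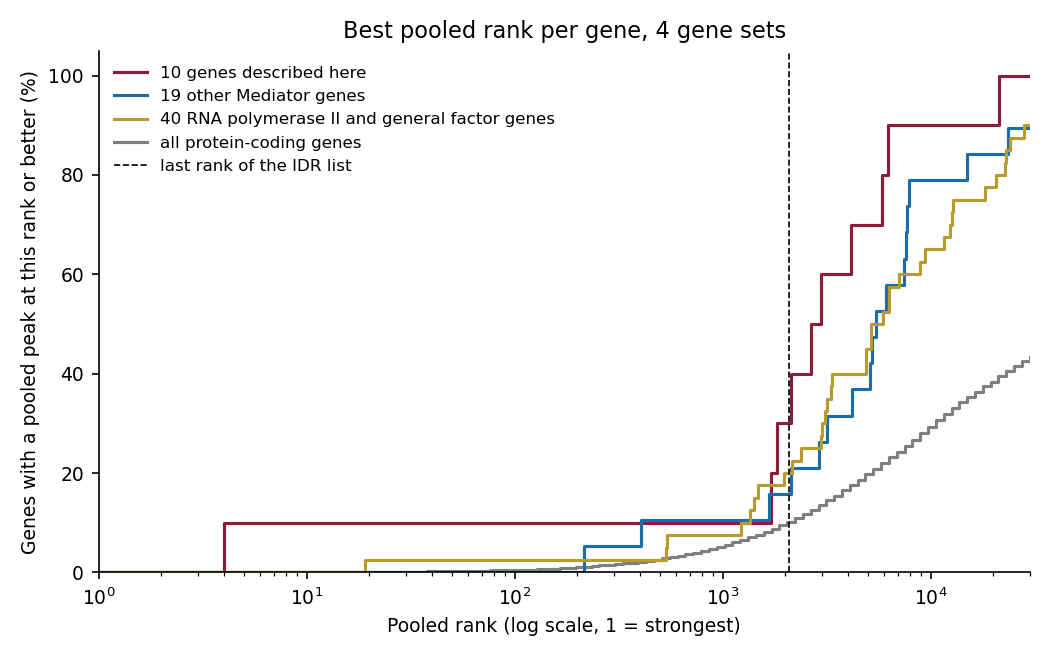
Share of genes (%) with a pooled peak at or above a given rank (log scale, 1 = strongest) for the 10 genes described here, the 19 other Mediator genes, the 40 polymerase and general factor genes and all protein-coding genes; the dashed line marks the end of the IDR list. The first step at rank 4 is mdt-26, and the curve of the 10 genes reaches 100% while that of all protein-coding genes ends at 43.3%.

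The genes nearest to mdt-26 in their best ranks over the pooled list and both replicates were named by the distance between log10 ranks. Genes whose best pooled summit was a summit of mdt-26 were left out, such as ift-43, which lies within 500 bp of its first strong summit. The distance is a likeness over 3 lists, of which the pooled one is not independent of the others, and says nothing of function. ZK1248.17 and nep-25, also on chromosome II, shared 1 peak at a signal of 798.9, ranks 3, 3 and 4 in the pooled list, replicate 1 and replicate 2. That peak lay over sls-2.1, a gene for a spliced leader RNA, and inside neither of them. F58G1.7 had ranks 5, 5 and 6 in an intron. R12E2.11 had ranks 1, 2 and 1 at a peak over the spliced leader RNA gene sls-2.4, 146 bp past its end. tos-1 had ranks 7, 9 and 8, in its 5′ untranslated region 65 bp inside. In this company mdt-26 and tos-1 were the genes whose strongest peak lay in their own first 100 bp. Leaving aside genes for piRNAs, a class of small RNAs that was not checked, no annotated non-coding gene held either of the strong summits of mdt-26.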

How the data were processed

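AMA-1 ChIP-seq of whole N2 worms at the L4 stage gave 1 group with 2 biological replicates, so numbered per the labels. The authors deposited peak lists, whose layout is the narrowPeak format: a pooled list, an IDR list and a list per replicate. The pooled list is labelled as peaks and background given as input to IDR. Each peak has a signal score and a −log10 q-value, both as the authors deposited them. The −log10 q-value reaches a ceiling shared by many peaks (2082 of the IDR list), so ranks were taken from the signal score. For the aligner, the peak caller, the control and the IDR threshold, no name or setting was given in the labels or files read. The copies on the ce10 build are not used here. All columns of per-sample values in the lists used were mapped (0 left out).

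Summits were matched to the Ensembl release 115 annotation of WBcel235, in the gene or 500 bp either side, with Python 3.11.15, pandas 2.3.3 and numpy 2.4.6. Sequence came from RefSeq's copy of that assembly. Inverted repeats were perfect arms of at least 8 bases, and other matches were sought with blastn 2.17.0. The summit counting was checked on simulated data.

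The members and gene lists were chosen with earlier results of these data known. All 10 members are named, as are the other Mediator genes with an IDR summit and genes that hold a summit counted for a member. The 5 genes nearest to mdt-26 by rank are also named, leaving out genes whose best pooled summit is a summit of mdt-26. C30E1.9, mdt-1.2, taf-4, ama-1, the other kinase-module genes and the markers were named after their values were seen. No test was run, since there is 1 group. Alternatives were the window, the peak set, nearest genes alone, each replicate left out, and a distance limit between replicates.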

Additional observations from a re-analysis of the deposited data

How the results depend on the processing

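Of 39 alternatives to the reported counts, 32 stayed within 1.5 times. The count of the 10 genes with an IDR summit, 3 as reported, ran from 3 to 5 when as many of the strongest peaks of a single replicate were used: without replicate 2 these were mdt-26, mdt-6 and mdt-15 (9.28% of all protein-coding genes had a summit), and without replicate 1 mdt-26, mdt-6, mdt-8, mdt-15 and mdt-19 (10.8%). mdt-17 was in neither set. Among the 1041 strongest IDR peaks the count was 1, mdt-26 (5.66%), and among 4164 pooled peaks it was 7 (17.8%). For the other Mediator genes the count of 3 became 1 inside the annotated genes alone and 6 among 4164 pooled peaks. Summits of both replicates within 50 bp of each other were found in 6 of the 10 genes, against 10 with a summit anywhere in the window. For that distance, and for the inside of annotated genes alone, no share over all protein-coding genes is given. Those counts thus describe the Mediator genes and do not set them apart from others. The best rank of mdt-26 ran from 2 to 4 with either replicate left out. The cause of these shifts was not tested. No paired analysis was possible because the samples form 1 group. Read depth is unknown, so a summit missing from a replicate's 30000 peaks may be weak and not absent, and signal values are not comparable between lists.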
